A study of Mus musculus with 2 samples.

Results

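Cornification is the last step of epidermal differentiation, in which keratinocytes, the epithelial cells of the epidermis, lose their organelles and turn into flattened dead cells of the skin surface. Under the plasma membrane, transglutaminase enzymes cross-link precursor proteins into the cornified envelope, on a scaffold that the plakin proteins envoplakin and periplakin help to build. Proteases such as caspase-14 and the aspartic protease Asprv1 process filaggrin, and corneodesmosin holds the dead cells together until they are shed. The 10 genes described here are the transglutaminases Tgm1, Tgm3 and Tgm5, the plakins Evpl (envoplakin) and Ppl (periplakin), the proteases Casp14 and Asprv1, and Cdsn (corneodesmosin), Scel (sciellin) and Cnfn (cornifelin). They were chosen by name, out of 20144 genes named on the array, and all 10 were found through the RefSeq accession of their probes. Tgm3 had 2 probes and each other gene 1, so 11 probes were read.

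According to the labels the RNA came from primary keratinocytes of mice, although markers of other tissues were measured on both arrays, as described below. It was read on Agilent arrays with a single dye. The control array held RNA labelled Rac3-KO, a knockout of Rac3, and the second array RNA labelled Rac1Rac3-DKO, a double knockout of Rac1 and Rac3, so per the labels both genotypes lack Rac3. Rac1 and Rac3 are small GTPases of the actin cytoskeleton. The labels call the cells P3 primary keratinocytes; the Cre driver, strain, age and number of animals are not given in the sources used here. With 1 array per genotype there were no replicates, no difference was tested, and every error below is technical. The series title asks how Rac-dependent signals of keratinocytes act on fat cells of the dermis.

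On the Rac3-KO control array and the array labelled DKO 56.9% and 52.9% of 55678 probes were detected, meaning flagged by the scanner software as well above background, and the 75th percentile of the processed signal was 705 and 354. A level is the log2 processed signal minus that percentile of its own array, and a difference is the level on the array labelled DKO minus that on the control array. The targeted gene did not separate the arrays: the brighter Rac1 probe had levels of 4.82 and 5.10, which is 0.28 apart where the software's own signal error is 0.20, and the other Rac1 probe differed by -0.12. The Rac3 probe was detected on both arrays. Where the probes lie relative to the deleted parts is not given in the sources used here, so they may check nothing. Markers of other tissues were measured on both arrays, and most of those lists were higher on the array labelled DKO. The medians of the differences were 2.54 for 12 skeletal muscle genes, 0.99 for 7 leukocyte genes, 0.82 for 4 erythroid genes, 0.79 for 8 fibroblast genes, 0.61 for 6 endothelial genes and 0.57 for 6 adipocyte genes, against -1.30 for 5 melanocyte genes. The brightest markers were Tnnc2 and Tnni2 of muscle, Csf1r and Itgam of leukocytes, Hba-a1 and Hbb-bt of red cells, Col1a2 and Col3a1 of fibroblasts, Kdr and Cldn5 of endothelium, Fabp4 and Lpl of adipocytes and Dct and Pmel of melanocytes. In such bulk RNA, fewer keratinocytes and less RNA of a gene per keratinocyte cannot be told apart.

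On the percentile scale the cornification enzymes and plakins, Tgm3 apart, were lower on the array labelled DKO, while relative to the median of basal keratinocyte markers 4 of the 9 were below 0 and none was 2-fold lower. Of these 4, Asprv1 and Evpl lay below that median by more than 1.96 times their own signal error. That error leaves out the spread of the basal markers, whose differences ran from -2.31 to -0.89 (SD 0.45). Asprv1, at -2.24, and Evpl, at -2.16, lay within that range. Relative to the basal median 0.247% of all measured genes were lower by 2-fold or more and 85.5% higher, with a median difference of 1.64. All 10 genes were detected on both arrays. On the percentile scale 9 of the 10 were lower by 2-fold or more on the array labelled DKO and 0 higher by 2-fold or more, beside 6.62% and 7.71% of all 14144 genes detected on both arrays. Their median difference was -1.46, or 2.74-fold, beside -0.0077 for all measured genes, whose middle part, between the quartiles, ran from -0.40 to 0.41. At a threshold of 1.5-fold 9 of the 10 genes were lower and 1 higher, beside 16.5% and 18.2% of all measured genes, and at 3-fold 4 were lower and 0 higher, beside 2.23% and 2.29%. The probes of Tgm3 went against each other. The direction depends on the scaling: basal keratinocyte markers had a median difference of -1.65, and relative to that median the same 10 genes had a median difference of 0.19. The 10 genes were picked with earlier results of these arrays known, so the count describes them and is no independent evidence of a direction.

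**Figure D1:**
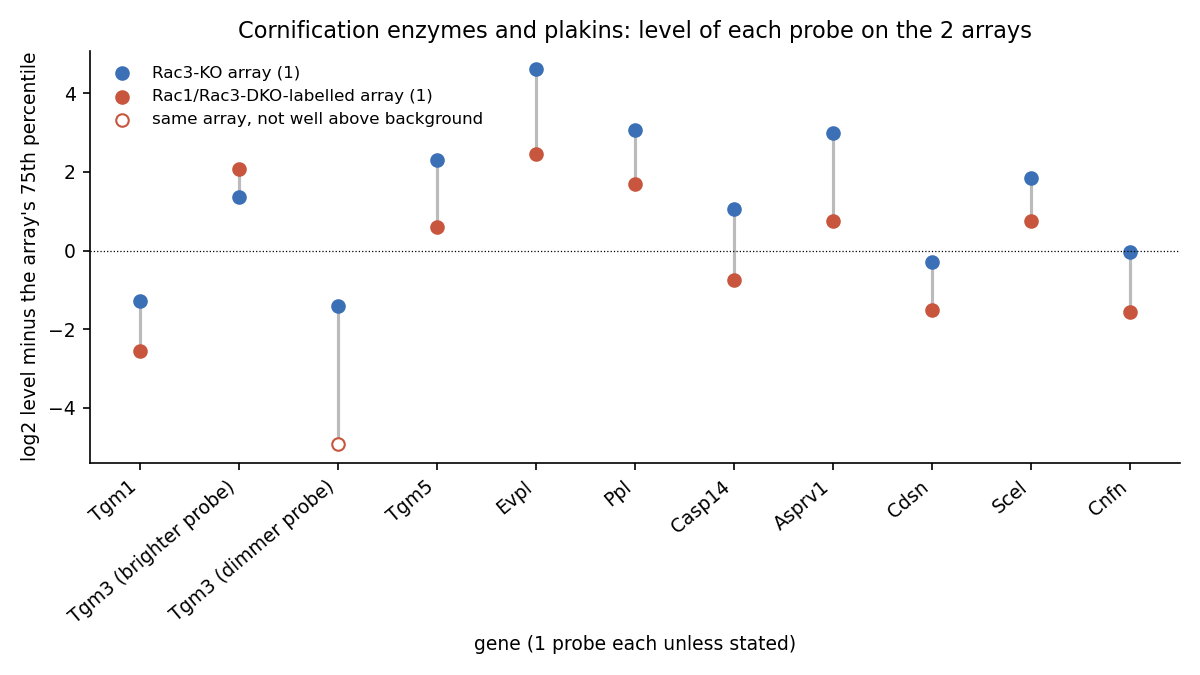
Log2 level (y axis, relative to the 75th percentile of each array) of every probe of the 10 genes (x axis) on the control array (blue) and the array labelled DKO (red), 1 array each; the open symbol was not detected. The red point lies below the blue one for every probe except the brighter Tgm3 probe, at levels of 1.36 and 2.07.

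Tgm1 encodes the membrane-anchored transglutaminase of keratinocytes, which cross-links envelope precursors at the cell edge. Its processed signal was 289 on the control array and 60.8 on the array labelled DKO, and its levels were -1.29 and -2.54. It was thus 2.39-fold lower, with a range of 1.74-fold to 3.30-fold at 1.96 times the scanner signal error. Its signal on the array labelled DKO was low, and the value depended on how dim signals were handled. With normexp correction its difference was -0.54 in place of -1.26. This correction models the background instead of taking the software's processed signal. It also adds an offset of 50 to every signal, which by itself shrinks differences of dim probes. The parts of the background model and of the offset were not separated.

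Tgm5, a further epidermal transglutaminase, had signals of 3488 and 535 and levels of 2.31 and 0.59 on the control and the array labelled DKO. Tgm5 was 3.28-fold lower on the latter (2.48-fold to 4.33-fold). Normexp correction gave -1.70 in place of -1.71.

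Tgm3 encodes a soluble transglutaminase that is made as a zymogen, cut by proteases to become active, and used in the epidermis and the hair follicle. Its brighter probe had signals of 1806 and 1492 and levels of 1.36 and 2.07, 0.72 higher on the array labelled DKO (signal error 0.20), or 1.64-fold (1.24-fold to 2.17-fold). Its dimmer probe had signals of 264 and 11.7, and the second of these was not detected. Measured against the lowest level detected on the array labelled DKO, -4.14, this probe was lower there by at least 6.60-fold; its measured levels were -1.42 and -4.92. The probes of Tgm3 thus stood on opposite sides, at least 3.44 log2 units apart, although both carry the same transcript accession. Among 5369 genes with several probes, 20 had a probe with a difference above 0 beside a probe detected only on the control array and lower by 2-fold or more on the other, and 3 of these, Tgm3 included, were as far apart as Tgm3. The mean over both probes, which includes the one below background, put Tgm3 at -1.39. Markers of the hair follicle sheath and shaft had a median difference of -1.82, with Krt71 and Krt28 the brightest. Their part in the Tgm3 values was not tested.

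The other transglutaminase family members that were measured did not follow Tgm1 and Tgm5. Tgm2, the tissue transglutaminase found in many cell types, had levels of 1.89 and 3.69, which is 3.49-fold higher on the array labelled DKO, and its other probe gave the same difference of 1.80. F13a1, the coagulation factor XIII subunit known from macrophages and platelets, differed by 1.02 at its brighter probe and 1.33 at the other. Marker medians were 0.99 for leukocytes, 0.82 for erythroid genes and 0.79 for fibroblasts. The part of other cell types in the Tgm2 and F13a1 values was not tested. Tgm4, Tgm6, Tgm7 and Epb42, the erythrocyte membrane member that has lost enzyme activity, were detected on neither array. Of the 6 other family members 2 were thus measured. Both were higher by 2-fold or more, beside 7.71% of all measured genes. F13a1 lay just past that threshold, at 2.03-fold (1.54-fold to 2.68-fold).

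Promoter windows of the 3 epidermal transglutaminases are shown because the brighter Tgm3 probe went against Tgm1 and Tgm5. The dimmer Tgm3 probe was lower, as Tgm1 and Tgm5 were, so whether the genes went apart is not settled. Windows of Asprv1 and Scel are shown because they had the lowest and the highest difference among the 9 lower genes. Windows run from 250 bases before to 50 bases after the annotated start (RefSeq, GRCm38.p6, 5′ to 3′), and 10 windows of 8 of the genes were found; Evpl and Ppl had none. Capitals mark matches, on either strand, to the AP-1 motif TGANTCA, the TATA box TATAAA, the Grainyhead-like motif AACCNGTT and the CCAAT box CCAAT.
Tgm1, chr14:55713039-55713338, minus strand: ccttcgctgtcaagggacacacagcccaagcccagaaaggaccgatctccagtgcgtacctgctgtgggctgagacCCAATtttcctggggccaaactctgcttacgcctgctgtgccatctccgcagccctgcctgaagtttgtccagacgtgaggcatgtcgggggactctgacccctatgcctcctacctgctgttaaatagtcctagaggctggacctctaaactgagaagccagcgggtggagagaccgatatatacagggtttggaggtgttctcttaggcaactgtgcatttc
Tgm3, chr2:130012090-130012389, plus strand: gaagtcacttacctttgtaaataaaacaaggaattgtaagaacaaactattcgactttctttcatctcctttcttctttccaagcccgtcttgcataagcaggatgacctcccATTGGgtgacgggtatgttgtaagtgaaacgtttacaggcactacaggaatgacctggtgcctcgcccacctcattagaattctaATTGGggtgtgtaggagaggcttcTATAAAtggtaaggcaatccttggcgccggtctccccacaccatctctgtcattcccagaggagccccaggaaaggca
Tgm5, chr2:121085792-121086091, minus strand: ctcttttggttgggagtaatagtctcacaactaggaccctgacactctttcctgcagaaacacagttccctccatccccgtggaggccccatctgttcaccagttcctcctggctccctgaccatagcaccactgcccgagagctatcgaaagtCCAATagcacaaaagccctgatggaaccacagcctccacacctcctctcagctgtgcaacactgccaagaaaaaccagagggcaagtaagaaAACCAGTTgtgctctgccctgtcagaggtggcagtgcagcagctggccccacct
Asprv1, chr6:86627924-86628223, plus strand: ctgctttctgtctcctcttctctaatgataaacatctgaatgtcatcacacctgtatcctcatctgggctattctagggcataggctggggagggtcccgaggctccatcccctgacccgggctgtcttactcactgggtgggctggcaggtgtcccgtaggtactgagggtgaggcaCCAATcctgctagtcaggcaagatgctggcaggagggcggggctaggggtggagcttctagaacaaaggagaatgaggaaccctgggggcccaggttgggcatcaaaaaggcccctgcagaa
Scel, chr14:103513091-103513390, plus strand: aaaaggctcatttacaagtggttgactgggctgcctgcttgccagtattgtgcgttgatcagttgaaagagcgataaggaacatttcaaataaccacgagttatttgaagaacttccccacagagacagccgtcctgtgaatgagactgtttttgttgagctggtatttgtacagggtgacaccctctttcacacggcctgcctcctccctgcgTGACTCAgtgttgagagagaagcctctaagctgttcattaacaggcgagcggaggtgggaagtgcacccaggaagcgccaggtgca

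No motif was shared by most of these genes. The TATA box was found in 1 of the 8 genes, Tgm3, 28 bases before the start, and in 13.6% of all 32851 windows of this length. The AP-1 motif was found in Scel alone, 36 bases before the start, and in 7.81% of all windows, and the Grainyhead-like motif in Tgm5 alone, 4 bases before the start, and in 2.09% of all windows. The CCAAT box was found in 4 genes, Tgm1, Tgm3, Tgm5 and Asprv1, and in 37.4% of all windows. Windows of Casp14, Cdsn and Cnfn and the second window of Tgm1 held none of the 4 motifs. None of these matches overlapped another. A match describes the letters only, and binding was not measured.

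On the percentile scale both scaffold plakins were lower, Evpl by more than Ppl. Each had 1 probe, so the part of probe choice in this gap was not tested. The SD between probes of the same gene was 0.38 as a root mean square over genes with several. Relative to the basal marker median Evpl stood at -0.51 and Ppl at 0.27. Evpl had signals of 17139.9 on the control array and 1927 on the array labelled DKO, with levels of 4.60 and 2.44. It was 4.47-fold lower (3.39-fold to 5.90-fold), and 99.3% of all measured genes had a higher difference. Ppl, its partner in heteromeric plakin complexes, had signals of 5942 and 1147 and levels of 3.08 and 1.69, which is 2.60-fold lower (1.97-fold to 3.44-fold). With normexp the differences were -2.33 for Evpl and -1.51 for Ppl, in place of -2.16 and -1.38.

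Among the 5 other plakins the differences separated into genes that were lower and genes that were not. Dsp, desmoplakin of the desmosome, differed by -1.67 at a probe spotted 9 times, with an SD between spots of 0.055 and 0.057 on the log2 scale on the control and the array labelled DKO, and by -1.38 at its other probe. Eppk1, epiplakin, which binds keratin filaments, differed by -1.09. The plakins that many tissues use were not lower: the differences were 0.59 for Plec (plectin), 0.22 for Macf1 and 0.11 for Dst, whose other probe gave 1.23. The list as a whole had 2 of 5 genes lower by 2-fold or more, 0 higher by 2-fold or more and a median of 0.11. Of all measured genes 6.62% were lower and 7.71% higher by 2-fold or more.

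The proteases of filaggrin processing were among the lowest of the 10 genes. Asprv1, a retroviral-like aspartic protease that cleaves profilaggrin, had signals of 5629 and 599 and levels of 2.997 and 0.76 on the control and the array labelled DKO. It was 4.73-fold lower (3.58-fold to 6.24-fold), with a higher difference in 99.4% of all measured genes. Casp14, the caspase of cornifying keratinocytes that takes part in filaggrin breakdown, had signals of 1476 and 211 and levels of 1.07 and -0.75. It was 3.52-fold lower (2.66-fold to 4.67-fold), or -1.50 with normexp in place of -1.82.

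Among the adhesion and envelope components Cnfn had the lowest difference, and Cdsn and Scel had the smallest of the 9 lower genes. Cnfn, an envelope component, had signals of 687 and 119.7 and levels of -0.036 and -1.57, and was 2.89-fold lower (2.17-fold to 3.84-fold). Cdsn, the adhesive glycoprotein of corneodesmosomes, had signals of 571 and 124 and levels of -0.30 and -1.52, and was 2.32-fold lower (1.75-fold to 3.09-fold). Scel, a precursor that transglutaminases cross-link, had signals of 2520.4 and 597 and levels of 1.84 and 0.75, and was 2.12-fold lower (1.61-fold to 2.80-fold). It lay just past the 2-fold threshold, and 94.4% of all measured genes had a higher difference. With normexp, Cdsn and Scel did not reach 2-fold, at -0.93 and -0.96, while Cnfn stood at -1.27.

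**Figure D2:**
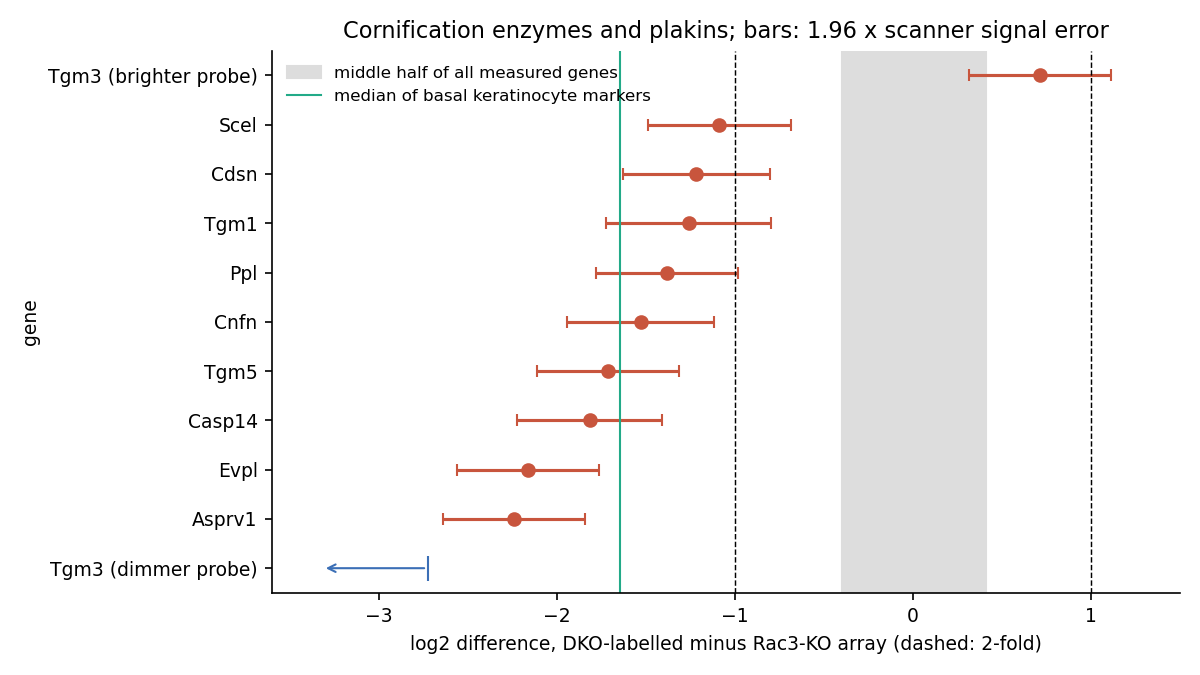
Log2 difference (x axis, array labelled DKO minus Rac3-KO control, scaled by 75th percentiles) of every probe of the 10 genes (y axis), with bars of 1.96 times the scanner signal error; the arrow marks a bound. The 9 lower genes lie between -2.24 and -1.09 on this scale and straddle the basal keratinocyte marker median (green line, -1.65), while the brighter Tgm3 probe lies at 0.72; relative to that median 5 of the 9 turn to above 0.

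Ordered by difference, the genes ran Asprv1, Evpl, Casp14, Tgm5, Cnfn, Ppl, Tgm1, Cdsn, Scel and Tgm3. No neighbours in this order differed by more than 1.96 times their combined signal error, except Scel and Tgm3, which lay 1.80 apart. Among the 9 lower genes 13 of 36 pairs differed by more than that error, and Asprv1 was lower than Cnfn, Ppl, Tgm1, Cdsn and Scel by more than it. The SD over these 9 differences was 0.41, beside an SD of 0.45 over the 10 basal keratinocyte markers and a median signal error of 0.20. The order at the ends therefore exceeded scanner error, and nothing is known of its spread between cultures or mice. Over 3578 genes with several measured probes, the SD between probes of the same gene was 0.38 as a root mean square and 0.19 as a median. The 9 lower genes had no further probe, so the part of probe choice in their order was not tested.

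Set beside other keratinocyte genes, the 9 lower genes differed by about as much as the markers of the basal layer. At the probe that represents each gene, all 10 basal markers had a difference below 0, beside 7150 of all 14144 measured genes. By 2-fold or more 8 of the 10 were lower, beside 6.62% of all measured genes. Trp63 differed by -1.80 at its representing probe and by 0.43 at its other probe. The brightest basal markers were Krt5 and Krt15, the first a basal keratin with levels of 8.28 and 7.08. Relative to the basal median, Asprv1 and Evpl stood at -0.59 and -0.51, Casp14 at -0.17, Tgm5 at -0.066, Cnfn at 0.12, Ppl at 0.27, Tgm1 at 0.39, Cdsn at 0.43 and Scel at 0.56, so that none was 2-fold apart from it, and the brighter Tgm3 probe stood at 2.36. Of all measured genes 0.247% were lower and 85.5% higher than that median by 2-fold or more. The suprabasal markers spread widely. Krt1 and Krt10, the keratins of the spinous layer, differed by -4.95 and -4.50, Krtdap by -1.92 and Sbsn by -1.50, while Krt2 differed by 0.73; Krt77 was detected only on the control array and at least 1.68-fold lower on the other. The brightest of this list were Krt10 and Krtdap. Krt1 and Krt10 thus lay below the difference that represents each of the 10 genes. Summed over a list on the scaled linear signal, the 10 genes went from 56.1 on the control array to 19.2 on the array labelled DKO, 2.92-fold lower, the basal markers from 683 to 249, 2.74-fold lower, and the suprabasal markers from 299 to 25.6, 11.7-fold lower. On the same scale skeletal muscle markers went from 388 to 2087, fibroblast markers from 1537 to 2686, erythroid markers from 1038 to 1816, adipocyte markers from 163 to 234, leukocyte markers from 37.8 to 91.1 and endothelial markers from 16.6 to 32.9. Melanocyte markers went from 81.1 to 33.6 and hair follicle markers from 100.1 to 30.8. Every marker of muscle, fibroblasts, red cells, adipocytes, leukocytes, endothelium and melanocytes that was matched was detected on both arrays. The part of a changed share of keratinocyte RNA in the differences of the 10 genes was not tested.

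**Figure D3:**
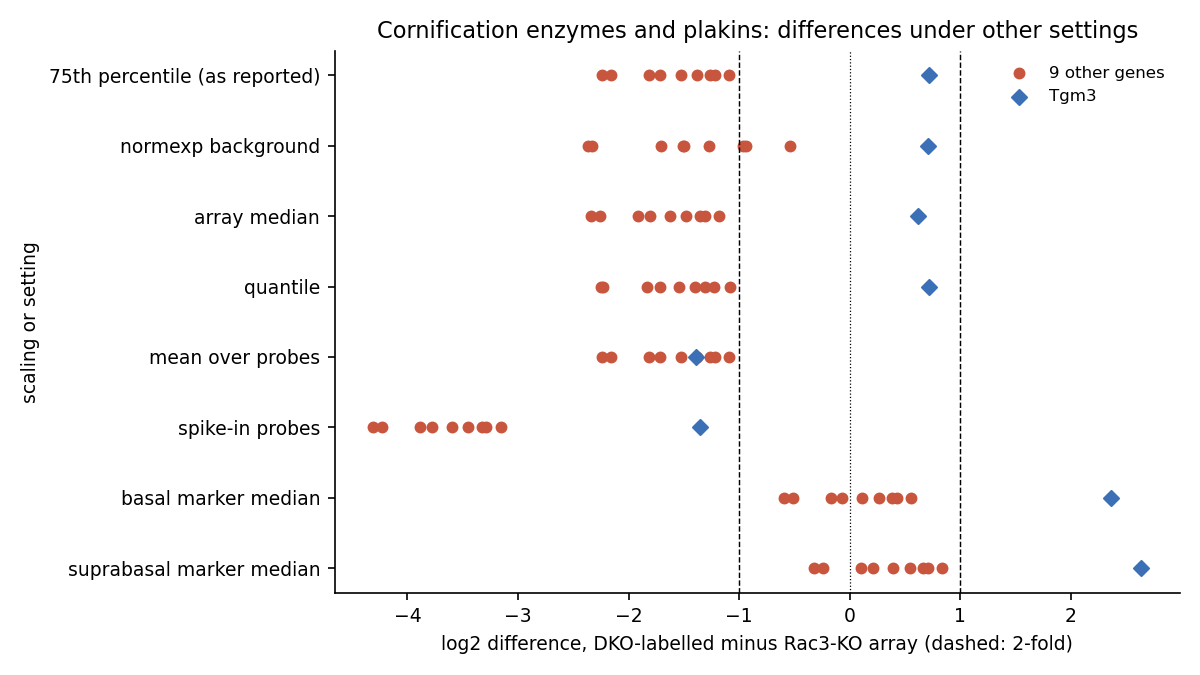
Log2 difference (x axis, array labelled DKO minus Rac3-KO control) of the 10 genes under 8 scalings or settings (y axis); red points are 9 genes and the blue diamond is Tgm3, 1 array each. The 9 genes lie below 0 on the array-wide and spike-in scales, and lie from -0.59 to 0.56 when the basal keratinocyte marker median is set to 0.

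The genes that work with these enzymes were partly lower too. Over 7 lists of related genes, 65 in all, 49 were detected on both arrays, 22 of these were lower by 2-fold or more and 3 higher by 2-fold or more on the array labelled DKO (median -0.63), beside the same 6.62% and 7.71% of all measured genes. With the basal marker median set to 0, 2 of the 49 were lower and 25 higher, beside 0.247% and 85.5% of all measured genes. Another 4 genes were detected only on the control array and 1 only on the array labelled DKO; over all 20144 named genes the counts were 858 and 230. With a bound of 2-fold or more, 3 of the 4 and the 1 remain, beside 0.933% and 0.908% of all named genes.

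Partners of corneodesmosin in the junctions between cells resembled the 10 genes in size. Of 6, 5 were lower by 2-fold or more and 0 higher (median -1.47), beside 6.62% and 7.71% of all measured genes. The desmosomal cadherins Dsg1a and Dsc1 differed by -2.15 and -1.60, the plaque proteins Pkp1 and Jup by -1.85 and -1.32, and the membrane protein Perp by -1.34. Pkp3, a further plaque protein, differed by 0.44. Dsg1a has near-identical copies, and its probe may read more than a single one.

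The substrates of the transglutaminases were mostly dim and mixed. Of 15 envelope precursor genes 7 were measured, 2 of them lower by 2-fold or more and 0 higher (median 0.39). The shares of all measured genes were 6.62% and 7.71%. Lor (loricrin), the main protein of the envelope, had levels of 3.35 and 2.11 and differed by -1.23, and the small proline-rich protein gene Sprr1a differed by -1.27. At the other end were the late cornified envelope genes Lce1m and Lce1a1, at 0.99 and 0.91, both with signals under 50 on either array. Hrnr, a filaggrin relative, was detected only on the control array and at least 3.79-fold lower on the array labelled DKO, and Ivl (involucrin) likewise by at least 1.28-fold at its brighter probe. The other Ivl probe, also detected only on the control array, gave no such bound. Its level there, -4.36, was below the lowest level detected on the array labelled DKO, -4.14. Lce3c was seen on the array labelled DKO only and at least 2.52-fold higher. Genes of the Sprr and Lce families are close copies, and their probes may cross-read.

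The enzymes and inhibitors around filaggrin processing and shedding went in both directions. Of 14 genes 13 were measured, 6 lower by 2-fold or more and 1 higher (median -0.63), beside 6.62% and 7.71% of all measured genes. Klk5, a kallikrein that cuts corneodesmosin, differed by -2.78 and Spink5, the inhibitor of such kallikreins, by -1.86. Cst6 (cystatin M/E), chosen after its value was seen because it inhibits the proteases legumain and cathepsin L, differed by -1.82. Its target proteases were at the other end, with Lgmn (legumain) at 1.12 and Ctsl (cathepsin L), which is known to activate transglutaminase 3, at 0.67. Marker medians were 0.99 for leukocytes, 0.82 for erythroid genes, 0.79 for fibroblasts and 0.61 for endothelium. Their part in these values was not tested, nor was any link between Cst6, these proteases and Tgm3.

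Lipid enzymes of the envelope ranged from clearly lower to slightly higher. Of 8 genes 5 were measured, 2 lower by 2-fold or more and 0 higher (median -0.56), beside 6.62% and 7.71% of all measured genes. Elovl4, which makes very long fatty acids, differed by -2.83 and the ceramide synthase gene Cers3 by -1.74. Ugcg, a glucosylceramide synthase, differed by 0.24, and Alox12b, a lipoxygenase of the lipid envelope, by 0.19 at the probe that represents it and by -1.32 at the other. Abca12, a lipid transporter of lamellar granules, and Cyp4f39, a fatty acid hydroxylase, were detected only on the control array, at least 3.75-fold and 4.45-fold lower on the other.

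Of the 11 transcription factors of late differentiation, 10 had a difference below 0, beside 7150 of all 14144 measured genes. Only 5 of the 11 factors were lower by 2-fold or more and 0 higher (median -0.98), beside 6.62% and 7.71% of all measured genes. Grhl3, a Grainyhead-like factor, differed by -1.49. Klf4, a barrier factor that other cell types also express, differed by 0.32 and Prdm1, a transcriptional repressor, by -0.054.

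**Figure D4:**
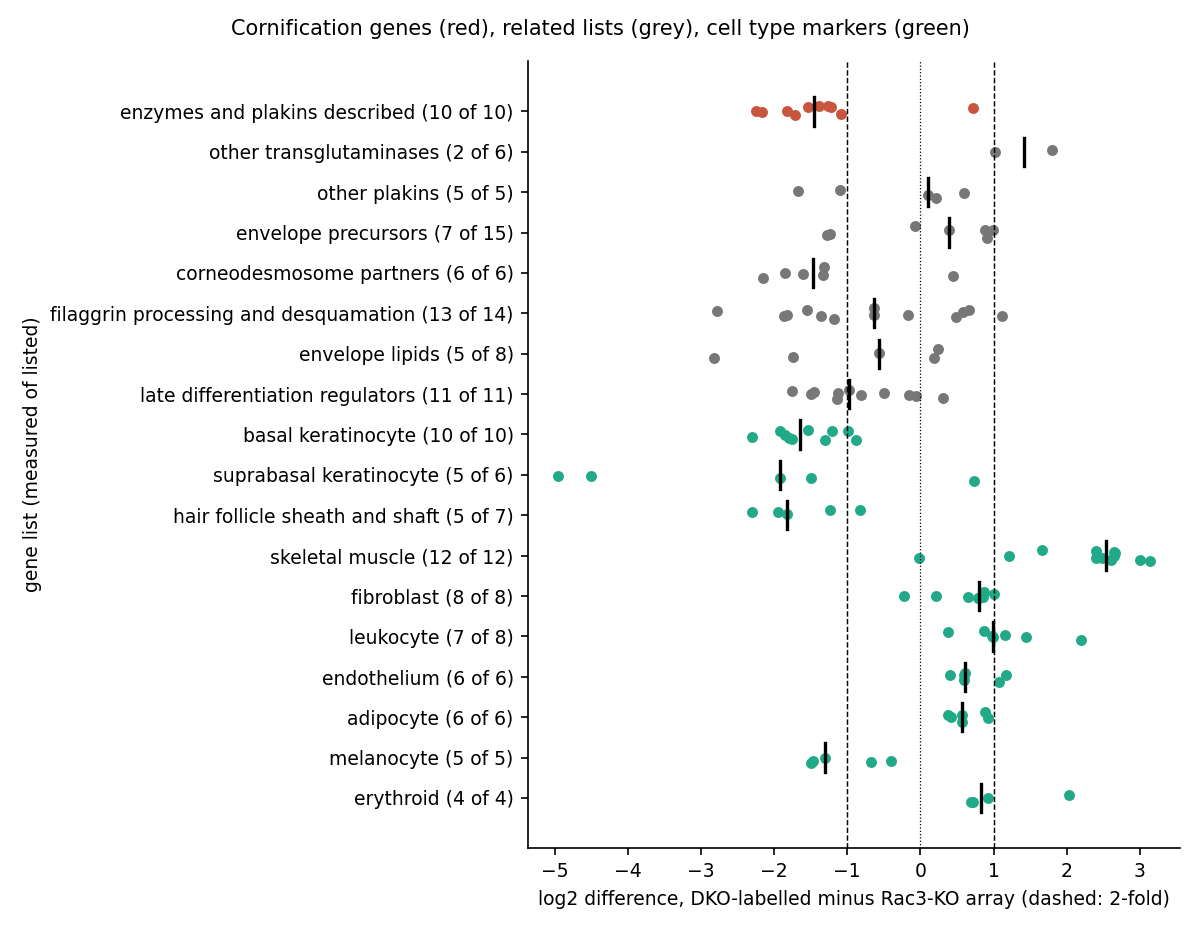
Log2 difference (x axis, array labelled DKO minus Rac3-KO control, scaled by 75th percentiles) of every measured gene of the 10 genes described (red), the 7 related lists (grey) and the 10 cell type marker lists (green), with black bars at the medians; the y axis gives measured and listed counts. The 10 genes (median -1.46) lie near the corneodesmosome partners (-1.47) and basal keratinocyte markers (-1.65), while other transglutaminases lie at 1.02 and 1.80; scaled to the basal marker median the median of the 10 genes turns to 0.19.

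Evpl, whose probe was the brightest of the 11 over both arrays, was taken to look for genes with a like pattern. The nearest to it in both levels, over 2 arrays and 14143 other measured genes, were Aqp3, a water and glycerol channel, at a distance of 0.24 log2 units, Atf3, a stress-induced transcription factor, at 0.27, and Trp63, the transcription factor of stratified epithelia and one of the basal markers above, at 0.29. Only 1 gene lay within 0.25. Likeness over 2 arrays is a description of probe brightness, and different probes give no order of transcript amounts.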

How the data were processed

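Total RNA was labelled with Cy3 and hybridised to 2 arrays, 1 for each genotype label. Per the file headers, spot intensity in the deposited scanner files came from Feature Extraction 10.10.1.1. A different version, Agilent Feature Extraction 9.1, stands in the submitters' processing notes. The authors' deposited value table is on the log2 scale and equalled the log2 processed signal minus a constant per array, close to the 75th percentile, for 100% of singly spotted probes within 0.001; its column medians were -3.72 and -3.62, so its scale and centring are known.

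Here, control spots and outlier spots were left out, spots of a probe averaged on the log2 scale, and each array's 75th percentile subtracted. Accessions were matched to RefSeq symbols (GRCm38.p6, names only), which named 26580 probes and left 29098 unnamed. Each gene took its probe with the highest mean level, and counts as measured if both arrays detected this probe. A gene seen on 1 array only received a lower bound of its fold, against the lowest detected level of the dim array or its own dim level if that was higher. The number of arrays limits precision. The errors are technical: the software's signal error (median 0.20 on a difference), the SD over repeated spots (median 0.09, 277 probes) and the SD over a gene's probes (0.38 as a root mean square).

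The 10 genes, 7 related lists and 10 marker lists were chosen with earlier results of these data known. Text named all genes of lists of up to 6, the 2 lowest and 2 highest of longer lists, genes with a bound of 2-fold or more, and the 2 brightest markers; Ivl, Cst6, Trp63, the lesser probes and the suprabasal genes were added after their values were seen. Flg and Cd68 were not analysed here, and the values of 1 list member are not reported here. Python 3.11.15, pandas 2.3.3, and limma 3.58.1 (normexp, offset 50, on median spot signal in place of the planned mean, and median background) were used. The scaling and the differences of probes, but not the choice of probes, the counts or the bounds, were tested on simulated data.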

Additional observations from a re-analysis of the deposited data

How the results depend on the processing

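The count of 9 lower genes was also found with array median, detected-probe percentile and quantile scaling, the deposited value table, no filter, outlier spots kept and the mean over detected probes. In these settings 6.42% to 8.14% of all genes counted were lower by 2-fold or more. A 1.5-fold threshold also gave 9, beside 16.5%. The count was 8 of 9 with a stricter filter on dim probes (5.43% of all genes counted) and 10 with the mean over all probes (6.43%). It was also 10 on the spike-in scale, where 93.3% of all measured genes were lower as well. Normexp gave 6 (4.70%), and there Tgm1, Cdsn and Scel did not reach 2-fold. Its offset of 50 by itself shrinks differences of dim probes. Tgm3 turned to -1.39 with the mean over its probes and to -1.35 on the spike-in scale. Thresholds moved counts by construction: at 1.5-fold 1 of the 10 genes and 8 related genes were higher (18.2% of all measured genes), and at 3-fold 4 of the 10 and 10 related genes were lower (2.23%) and 1 related gene higher (2.29%). Without a filter, which lets dim probes enter, 27 of 64 related genes were lower by 2-fold or more and 7 higher, beside 7.55% and 10.5% of all named genes. With array median scaling 8.14% of all measured genes were lower by 2-fold or more and 6.30% higher. Array median scaling, quantile scaling and normexp each left 2 related genes higher in place of 3. The shares of all measured genes were 6.30%, 7.12% and 5.43%.

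Scales set on RNA amount or on keratinocyte markers moved every value. Spike-in probes differed by 1.08 where the 75th percentile differed by -0.99, so on that scale the median of the 10 genes was -3.52, 47 related genes were lower and 0 higher, and 93.3% of all measured genes were lower by 2-fold or more. With the basal marker median set to 0, 0 of the 10 genes were lower and 1 higher, their median was 0.19, 2 related genes were lower and 25 higher, and Tgm1, Ppl, Cdsn, Scel and Cnfn turned to 0.39, 0.27, 0.43, 0.56 and 0.12; 85.5% of all measured genes were higher by 2-fold or more on this scale. With the suprabasal median set to 0 the counts were 0 and 1, the median 0.47, the related genes 0 lower and 26 higher (0.163% and 92.2% of all measured genes), and Tgm1, Tgm5, Ppl, Casp14, Cdsn, Scel and Cnfn turned to 0.66, 0.21, 0.54, 0.11, 0.71, 0.84 and 0.39. The cause of these reversals is the scale itself, which subtracts a median of -1.65 or -1.92.

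No paired analysis was possible because each genotype had 1 array. Signal over background limits the dim probes, above all Tgm1 and the dimmer Tgm3 probe, and with 1 array per genotype no value has a biological error.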
